A study of Mus musculus with 9 samples.

Results

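The clustered protocadherin genes are 58 neighbouring genes of mouse chromosome 18. They were taken as every gene there whose symbol in RefSeq (GRCm38.p6, the coordinates of mm10) begins with Pcdha, Pcdhb or Pcdhg, out of 49997 annotated genes. The alpha cluster has 14 members, the beta cluster 22 and the gamma cluster 22, all protein-coding except the pseudogene Pcdhgb8. Clustered protocadherins are cell-surface adhesion proteins that bind their like on neighbouring cells, and neurons use different mixtures of them to tell their own branches from those of other cells. In the alpha and gamma clusters each variable first exon has a promoter of its own and is spliced to constant exons shared by the whole cluster, whereas the beta genes have a single coding exon. Promoter choice is known to involve CTCF, a DNA-binding factor that with cohesin joins promoters to distant enhancers, and to be opposed by DNA methylation.

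Open chromatin was mapped by ATAC-seq, in which a transposase cuts accessible DNA, in mouse E14 embryonic stem cells of a variant called TOT2N. There were 3 libraries from cells with a stably integrated TetR-MYBTA construct, 3 from cells with a stably integrated TetR construct and 3 from wild-type cells (WT) without either construct. TetR is a bacterial repressor that binds DNA, and the labels do not spell out what MYBTA is. All groups share the TOT2N background, which the labels do not explain either. The promoter driving the constructs and the number of clones behind a line are not given in the sources used here. In bulk ATAC-seq a site open in fewer cells and a site less open in each cell cannot be told apart. Nothing says whether libraries of a line came from separate cultures, so a p-value here reflects how these libraries vary, possibly for technical reasons alone. The TetR-MYBTA libraries had 18.2 to 19.8 M tags and 45136 to 59675 peaks, the TetR libraries 16.4 to 20.1 M tags and 58762 to 70230 peaks, and the WT libraries 18.5 to 23.0 M tags and 56612 to 63098 peaks. TetR-MYBTA replicate 3 had the shortest list. Tags inside peaks made up 5.48 to 7.57% of tags for TetR-MYBTA, 9.30 to 9.78% for TetR and 7.79 to 8.09% for WT, so the lines did not overlap in this measure. Of 8 stem cell genes, Sox2, Klf4 and Tfcp2l1 had a peak at their start in every library. Dppa5a, scored at either gene end, also had a peak in every library. Esrrb had a start peak in 8, Pou5f1 in 7 and Zfp42 in none. Nanog had one in 4 (0 of 3 TetR-MYBTA, 3 of 3 TetR and 1 of 3 WT). Of 6 neural genes, Neurod1 and Olig2 were open in all 9 libraries, Neurog2 in 8, Tubb3 in none, Pax6 in 6 and Sox1 in 6 (0 of 3 TetR-MYBTA, 3 of 3 TetR and 3 of 3 WT). Of 6 genes of other cells, Spi1 was open in all 9 and Myod1 in 3, and Gata1, Ptprc, Alb and Ins2 in none. Here Spi1, Myod1 and Ins2 were scored at either gene end.

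The clusters lie at chr18:36930285-37188897 (alpha), chr18:37264998-37521419 (beta) and chr18:37661775-37841873 (gamma). With 50 kb on either side the whole span runs from 36880285 to 37891873, a stretch of 1012 kb. Peaks of all libraries that overlapped by at least 1 bp were joined into union regions, which gave 108 regions in the span. Of these, 21 (19.4%) had a peak in all 9 libraries, against 22.4% of the 116362 union regions of the genome, and 29 had a peak in a single library. Regions of all 9 libraries numbered 4 in alpha, 4 in beta, 7 in gamma and 6 outside the genes of the clusters.

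**Figure D1:**
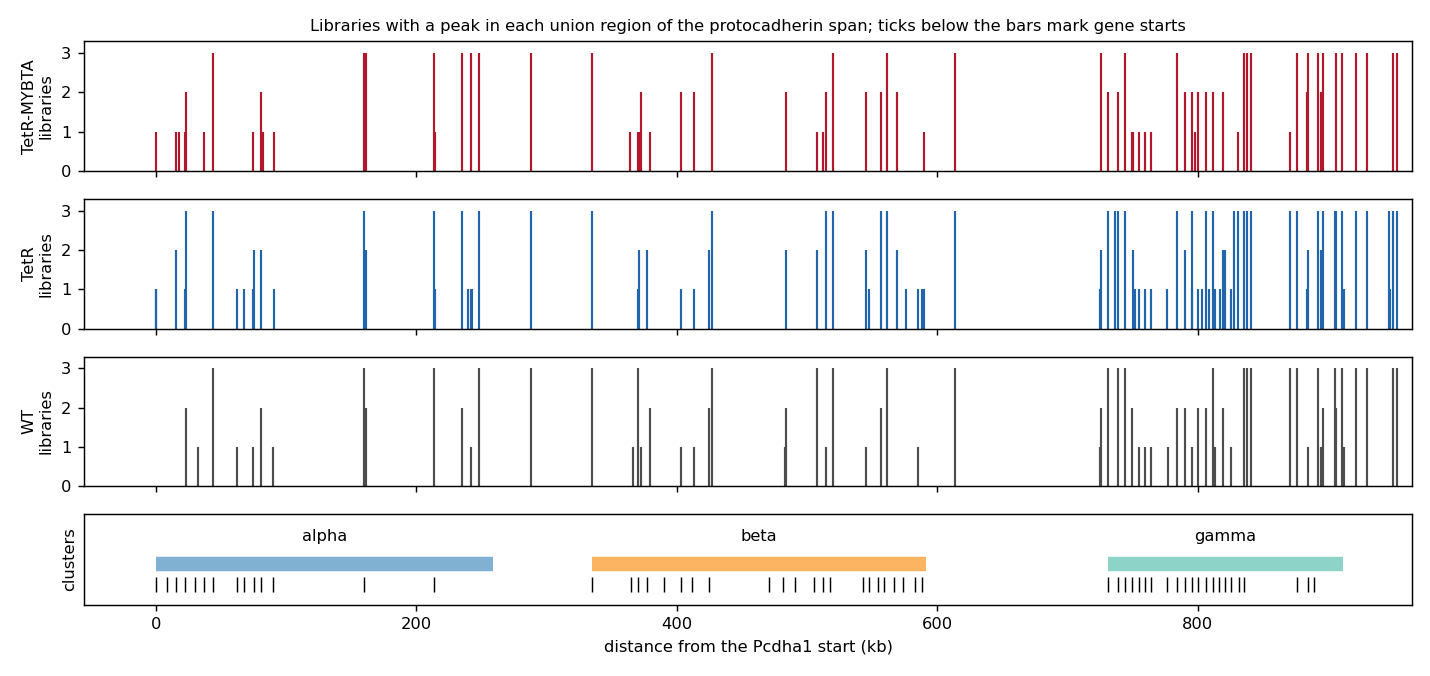
Number of libraries of each line (0 to 3) with a peak in each union region, by distance in kb from the start of Pcdha1; bars below show the 3 clusters and ticks the gene starts. The 21 regions of all 9 libraries reach 3 in every line, bars are spaced most closely over gamma, and the widest stretch with no bar lies between beta and gamma.

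The gamma cluster was the most densely open. It held 10.2 ± 1.96 peaks per 100 kb (SD, n = 9 libraries), beta held 3.96 ± 1.06 and alpha held 3.28 ± 0.901, where each cluster was counted with its 50-kb margins. With margins alpha ends at 37238897 and beta begins at 37214998. Peaks of the region chr18:37218199-37218476 were therefore counted in both, also in the shares below. Gamma exceeded alpha by 6.95 peaks per 100 kb and beta by 6.28, in 9 of 9 libraries each. A two-sided exact sign-flip permutation over libraries gave p = 0.00391 for each, the smallest that 9 libraries allow (adjusted p = 0.00586 over 3 pairs of clusters). The test pools 3 libraries from each of 3 lines as separate units. Beta exceeded alpha by 0.675 in 7 of 9 libraries (exact permutation p = 0.043, adjusted p = 0.043), but this call ended without the margins (difference 0.512, exact p = 0.176) and turned round in the upper 50% of each list (-0.212). It also ended on leaving out TetR-MYBTA replicate 1, TetR replicate 2 or 3, or any WT replicate (0.546 to 0.687). The median of 2549 consecutive 1-Mb windows of the genome was 2.17 peaks per 100 kb. The whole span had 36 to 60 peaks in the TetR-MYBTA libraries, 56 to 68 in those of TetR and 46 to 49 in those of WT, and its mean density lay above 97.7% of the windows. Those windows include gene-poor stretches, and gene number was not matched. Gene starts lie a median of 5330 bp apart in gamma, 7842 bp in beta and 7440 bp in alpha. The densities of the clusters were not adjusted for this.

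**Figure D2:**
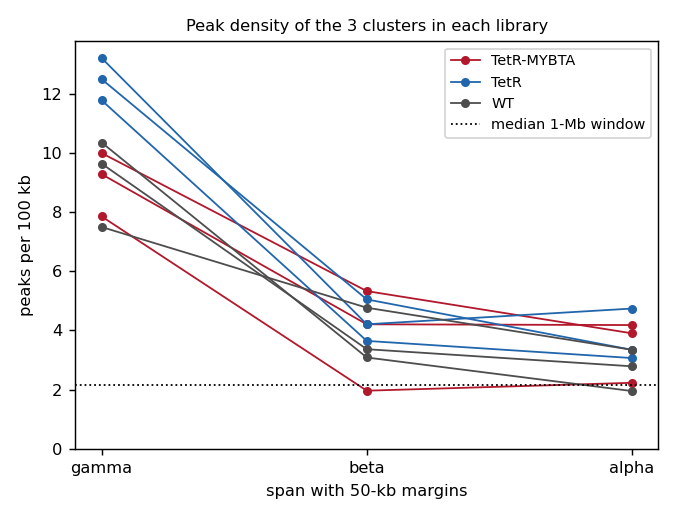
Peaks per 100 kb in the gamma, beta and alpha spans with 50-kb margins; each line joins the values of 1 library, coloured by cell line, and the dotted line is the median 1-Mb window of the genome. Every library is highest in gamma, while the order of beta and alpha differs between libraries.

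At the gene starts, most members were open in some libraries and not in others. A start counted as open if a peak lay within 1 kb of it. Starts of 7 members (12.1%) were open in all 9 libraries, against 44% of 14731 protein-coding genes with a single listed start on other chromosomes. Starts of 16 members (27.6%) were open in none, against 41.2%, and the remaining 35 (60.3%) were open in 1 to 8 libraries, against 14.8%. A TetR-MYBTA library had 13 to 25 open starts, a TetR library 24 to 31 and a WT library 19 to 21. As a share of the members this averaged 35.6 ± 11.5% for TetR-MYBTA, 46.6 ± 6.22% for TetR and 34.5 ± 1.72% for WT (SD, n = 3 each). Among the other genes 47.5 to 54.5% of starts were open per library.

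Peaks at member starts also stood low in the lists. The deposited lists run in an order whose measure the headers do not name, and peaks near the top were the ones most often seen elsewhere: with each list divided into 5 equal parts, 88.8% of peaks in the first lay in regions of all 9 libraries, against 6.86% in the last. On a scale where 100 is the first row, the 213 peaks within 1 kb of member starts had a median place of 27.2, and peaks within 1 kb of the other genes' starts had one of 77.0. Of the members' start peaks 23.9% stood in the upper 50% of their list, against 79.0%. The share of members open in some libraries accordingly depended on how far down the lists were read: it was 34.5% (15.0% of other genes) with every list held to 45136 rows, and 15.5% (19.5% of other genes) in the upper 50% of each list, where 47 members had no start peak.

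The alpha cluster was most regularly open at its C-type genes, which lie nearest the constant exons and differ from the other variable exons in sequence. Pcdhac1 (chr18:37090136-37187657) and Pcdhac2 (chr18:37143678-37187663) had a start peak in all 9 libraries, with places of 62.3 to 86.7 and 40.1 to 73.4. Of the other 12 alpha genes only Pcdha7 was open in all 9, at lower places of 1.79 to 56.4. Pcdha4 followed with 2 of 3 TetR-MYBTA, 3 of 3 TetR and 2 of 3 WT libraries, and Pcdha11 with 2 of 3 in each line. Pcdha10 was open in 1 TetR-MYBTA, 2 TetR and 1 WT library and Pcdha12 in 1 of each line. Pcdha1, the first gene of the cluster, and Pcdha3 were each open in 1 TetR-MYBTA and 2 TetR libraries and in no WT library. Pcdha6 was open in 1 TetR-MYBTA library, Pcdha9 in 1 TetR library and Pcdha8 in 1 TetR and 1 WT library. Pcdha2 and Pcdha5 were open in none.

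Start peaks of the beta cluster lay mainly at its first genes. Pcdhb1 (chr18:37264998-37267454), which stands apart from the rest of the cluster, had a start peak in all 9 libraries and Pcdhb3 in 8, missing in TetR-MYBTA replicate 3. The start peak of Pcdhb1 stood at places 0.306 to 66.2, so it lay near the end of at least 1 list. Pcdhb6 had one in 2 TetR-MYBTA, 1 TetR and 1 WT library, and Pcdhb8 in 0 TetR-MYBTA, 2 TetR and 2 WT libraries. Pcdhb4 was open in 2 TetR libraries and Pcdhb2 in 1 TetR-MYBTA library. Among Pcdhb1 to Pcdhb8, 6 of 8 genes had a start peak in at least 1 library. Among the 14 genes from Pcdhb9 to Pcdhb22 only Pcdhb13, Pcdhb16 and Pcdhb22 did, each in 1 library. This division of the cluster was made after the values were seen.

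The gamma cluster had a start peak in at least 1 library at 21 of its 22 genes. Pcdhga3, Pcdhga12 and the C-type gene Pcdhgc3 (chr18:37806410-37841873) were open in all 9 libraries, and Pcdhgc3 stood highest, at places 53.0 to 89.3. Pcdhga1, Pcdhga2 and Pcdhgb6 were open in 2 of 3 TetR-MYBTA libraries and in every TetR and WT library, and Pcdhga7 in all but 1 WT library. Pcdhga9 was open in 2 TetR-MYBTA, 3 TetR and 2 WT libraries and Pcdhga8 in 2, 3 and 1. Pcdhgb1 and Pcdhgb4 were open in 2 libraries of each line, and Pcdhga4, Pcdhgb2 and Pcdhga5 in 1 library of each line. Pcdhgb5 was open in 2 TetR-MYBTA, 1 TetR and 2 WT libraries, and the C-type gene Pcdhgc4 in 3, 2 and 1. Pcdhga6 and Pcdhga11 were each open in 1 TetR and 1 WT library, Pcdhgb7 in 2 TetR libraries and Pcdhga10 in 1. Pcdhgc5, the last gene, was open in none. The gamma starts lie a median of 5330 bp apart.

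**Figure D3:**
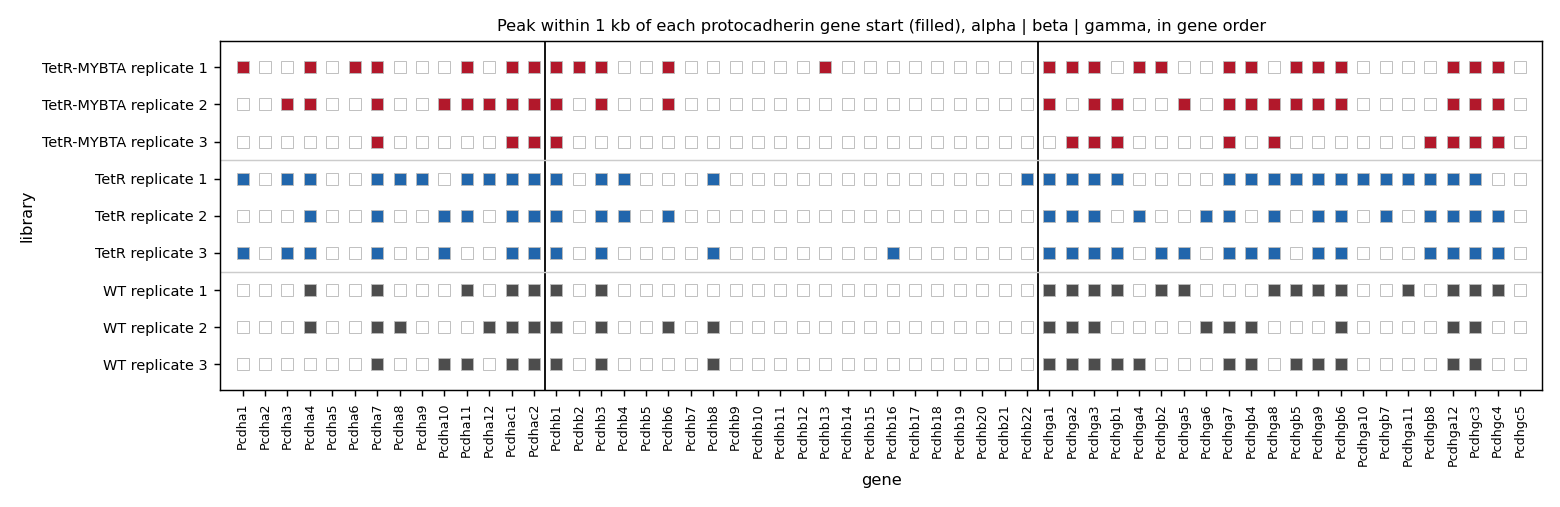
Peak within 1 kb of the start of each of the 58 genes (filled square) in each of the 9 libraries; genes run in chromosomal order and vertical lines divide alpha, beta and gamma. Columns filled in all 9 rows are Pcdha7, Pcdhac1, Pcdhac2, Pcdhb1, Pcdhga3, Pcdhga12 and Pcdhgc3, and the later beta genes are almost empty.

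Peaks kept to set distances from the gene starts, and these distances differed between the clusters. In gamma, 76 of the 155 peaks found from 2 kb before to 4 kb after a start, counted over all libraries, had their centre in the 0.2 kb just before it. In alpha there were 2 such positions, with 25 of 73 peaks in the 0.2 kb before the start and 25 from 0.4 to 0.6 kb after it, the second in 7 genes. Most peaks of the second came from Pcdha7 (9 libraries) and Pcdha4 (7 libraries), and each other gene gave at most 2. Peaks of one gene in several libraries are repeats of one site. In beta 53 of 109 peaks lay 2 to 2.2 kb after the start, in 14 genes, and 18 more from 2.2 to 2.4 kb, against 13 in the 0.2 kb before it. The 2 to 2.2 kb position of beta held 17 TetR-MYBTA peaks, 21 TetR peaks and 15 WT peaks, and the 0.4 to 0.6 kb position of alpha 7, 11 and 7. The stretches were set after the values were seen and are descriptions.

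The downstream position was open in many beta genes whose start was not. A peak centred 1.5 to 2.75 kb after the start was found in at least 1 library in 16 of 22 beta genes, 8 of 22 gamma genes and 4 of 14 alpha genes. Together these are 28 of 58 members (48.3%), against 5.37% of the 14731 other genes at the same distance. The stretch was drawn around peaks already seen in the members, so a higher share in them was built into the choice and is a description only. With lists of equal length the shares were 31.0% and 4.35%, and in the upper 50% of each list they were 10.3% and 3.00%. In beta the peaks lay a median of 2.17 kb after the start and 1.13 kb before the annotated end of the gene, within genes of 2.34 to 5.27 kb. From Pcdhb9 to Pcdhb22, 11 of 14 genes had such a peak and 9 of these had none at the start.

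The downstream peak was present in all 9 libraries in Pcdhb8 (chr18:37357149-37357395), Pcdhb14 (chr18:37449776-37450079) and Pcdhb18 (chr18:37491510-37491757). That of Pcdhb14 stood highest, at places 74.0 to 84.1, although no library had a peak at its start. Pcdhb10 and Pcdhb17 had the peak in 7 libraries, Pcdhb12 and Pcdhb13 in 6 and Pcdhb15 in 5. In gamma it recurred in Pcdhga12 (8 libraries) and Pcdhga10 (6 libraries), and in alpha in Pcdhac1 (7 libraries). The Pcdhga12 peak of TetR-MYBTA replicate 2 was centred 2754 bp after the start, just past the stretch. Counted as a region (chr18:37768145-37768438), the Pcdhga12 peak was present in all 9 libraries as well. A TetR-MYBTA library had it in 4 to 12 beta genes, a TetR library in 7 to 12 and a WT library in 7 to 11, so the lines overlapped. Neither a start nor a downstream peak was found in any library for Pcdha2, Pcdhb5, Pcdhb9, Pcdhb11 and Pcdhgc5. The exons of the family resemble one another, rules for reads matching several places are not given in the sources used here, and the part of this in which genes lack peaks was not tested.

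**Figure D4:**
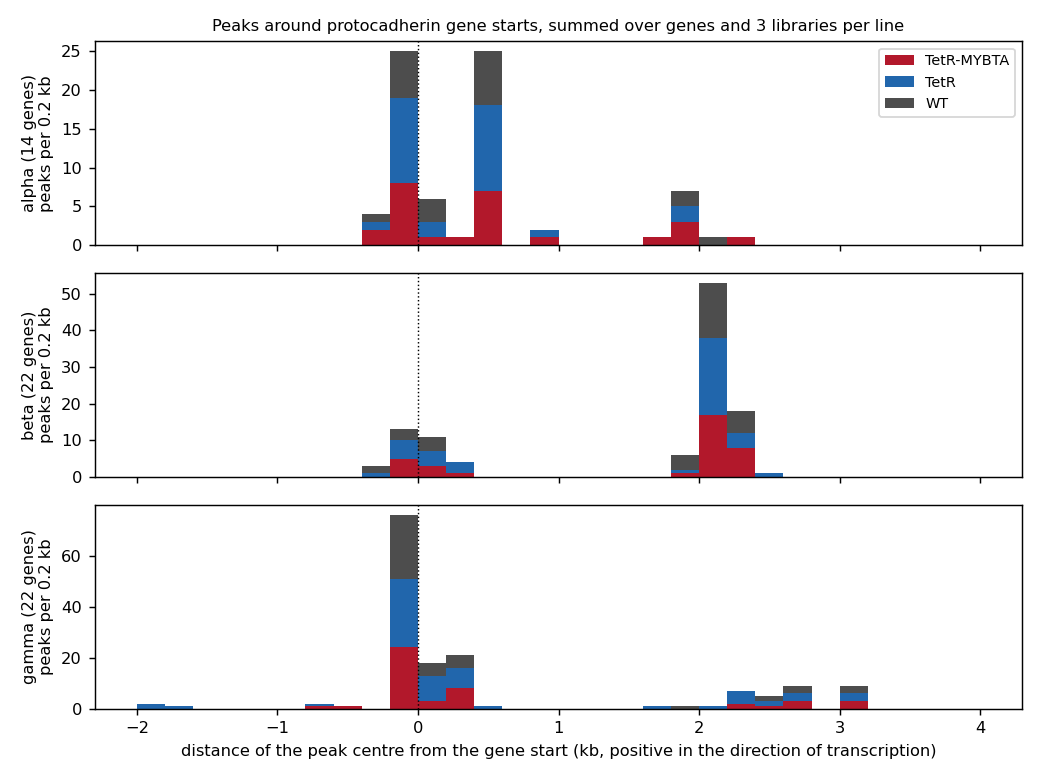
Number of peaks per 0.2 kb by distance of the peak centre from the gene start in kb, summed over the genes of each cluster and the 3 libraries of each line, which are stacked by colour. Gamma peaks gather just before the start, alpha peaks just before it and at 0.4 to 0.6 kb, and beta peaks at 2 to 2.4 kb, in all 3 lines.

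Some regions away from the starts had a peak in all 9 libraries. One such region of all 9 libraries lay between the alpha and beta genes (chr18:37218199-37218476), 29.4 kb after the end of alpha and 46.7 kb before Pcdhb1, at places 44.8 to 77.6. An enhancer of the alpha genes, named HS5-1, is known to lie between the alpha constant exons and the beta genes; its coordinates are not in the files, so no match was made. Another lay inside alpha, 34.9 kb after the start of Pcdhac2 (chr18:37178398-37178788), and one more 22.4 kb after the end of beta (chr18:37543614-37543950). Before Pcdhga1 lay 2 adjoining regions, the nearer one 5.88 kb away, which together had a peak in every library. Beyond the gamma cluster 4 regions of all 9 libraries lay 10.4 to 41.8 kb after its end, within Diaph1, which encodes a formin that builds actin filaments. Inside gamma, regions of all 9 libraries also lay 2.71 and 6.08 kb after the start of Pcdhga12, 3.10 kb after that of Pcdhgc5 and at chr18:37840713-37841006, near the shared gene end.

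Of the other genes in the span, Taf7, which encodes a subunit of the general transcription factor TFIID, and Slc25a2, a mitochondrial carrier gene, lie between beta and gamma and had no peak within 1 kb of either end in any library. A start without a called peak is therefore not taken as closed. Diaph1 had a peak at its upper end in 9 libraries. The pseudogenes Gm6756, Gm36858, Gm18150, Gm19035, Gm20162 and Gm8242 and the microRNA gene Mir6979 had none at either end, Gm18529 had one in 2 libraries and Gm24401 in 1. The annotated lncRNA gene Gm29994, inside gamma, had one near its lower end in 8 libraries. The read-through genes Gm37013, Gm38666 and Gm38667 begin at alpha exons and end with gamma, and had a peak at their lower end in 7, 1 and 9 libraries.

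Of 12 protocadherin genes outside the clusters, Pcdh8, Pcdh9, Pcdh10, Pcdh17, Pcdh18, Pcdh19 and Pcdh20 had a start peak in all 9. Pcdh15 had one in 5 (3 TetR-MYBTA, 2 TetR and 0 WT) and Pcdh7 in none. Scored at either gene end, Pcdh11x had a peak in 8, Pcdh1 in 5 and Pcdh12 in none. Among genes of factors that act on the clusters, the cohesin genes Smc1a, Smc3, Stag1 and Stag2 had a peak in all 9. So did the silencing genes Smchd1, Dnmt1, Trim28, Wiz and Rest. Altogether 7 of 12 outer protocadherins, 7 of 11 looping genes, 7 of 10 silencing genes and 2 of 3 demethylation genes had a peak in all 9. The share was 44% among the 14731 genes with a single listed start. Ctcf, Rad21 and Nipbl had none. Stag2, Rad21, Nipbl and Rest were scored at either gene end, unlike the genes behind the 44%. Tet1, which oxidises methylated cytosine, had a peak in 0 TetR-MYBTA, 3 TetR and 3 WT libraries. That pattern, also seen at Sox1, was found at 0.475% of the 14731 genes. The other factor genes open in some libraries were Mau2 (0, 2 and 2, in the same order of lines) and Setdb1 (3, 3 and 2). To these come the DNA methyltransferase genes Dnmt3a (2, 2 and 3) and Dnmt3b (1, 2 and 3).

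Next the lines were compared for the share of their peaks that lay in the clusters. Over the whole span there were 10.1, 9.66 and 7.98 peaks per 10000 peaks in the TetR-MYBTA libraries, 9.68, 9.70 and 9.53 in the TetR libraries and 8.13, 7.77 and 8.06 in the WT libraries. The TetR libraries lay above all WT libraries and the TetR-MYBTA libraries spread over both. The TetR mean was 9.64 ± 0.0946 and the WT mean 7.98 ± 0.191 (SD, n = 3 each), a ratio of 1.21 (two-sided exact permutation p = 0.1, the smallest that 3 against 3 libraries allow; adjusted p = 0.533 over 16 tests). In 14.5% of the 1-Mb windows all TetR libraries likewise lay above all WT libraries, and in 14.8% below. With lists of equal length the difference of TetR from WT was 0.517 peaks per 10000 (exact p = 0.6), against 1.66 with full lists. TetR-MYBTA averaged 9.23 ± 1.10 (SD, n = 3) and did not separate from TetR (ratio 0.958, exact p = 0.8), from WT (ratio 1.16, exact p = 0.3) or from both together (ratio 1.05, exact p = 0.607; the smallest possible is 0.0119). In the windows TetR-MYBTA lay above both other lines in 23.1% and below in 21.2%, above WT in 30.9% and below in 28%. Once all lists had equal length, TetR-MYBTA exceeded the other 6 libraries by 1.96 peaks per 10000 (exact p = 0.0476, adjusted p = 0.254), against 0.421 with full lists. The common length, 45136 rows, is the whole list of TetR-MYBTA replicate 3, whereas TetR replicate 1 was cut from 70230 rows. Peaks of the span stood low in the lists (median place 36.6), so the cut fell unequally on the libraries. Its part in the values for equal lists, here and below, was not tested. Without TetR-MYBTA replicate 3 the difference from TetR was 0.220 peaks per 10000, against -0.407 with it. Chromosome 18 as a whole held 3.04% of TetR-MYBTA peaks, 3.32% of TetR peaks and 3.23% of WT peaks.

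The gamma span held 4.69, 4.57 and 4.87 peaks per 10000 in TetR-MYBTA, 5.27, 5.31 and 5.62 in TetR and 5.12, 3.33 and 4.53 in WT. All TetR libraries lay above all libraries of the other lines, as they did in the share of tags inside peaks, whose part in this was not tested. TetR-MYBTA had 0.873 times the TetR share (4.71 ± 0.154 and 5.40 ± 0.191, SD, n = 3 each) and TetR 1.25 times the WT share (4.33 ± 0.915), each at the smallest p that 3 against 3 allow (two-sided exact permutation p = 0.1, adjusted p = 0.533). In the genome 28.1% of windows were lower in all TetR-MYBTA than in all TetR libraries and 29.1% higher. TetR-MYBTA against WT gave a ratio of 1.09 in gamma (exact p = 0.7). In lists of equal length the gamma differences were 0 for TetR-MYBTA against TetR (exact p = 1) and 0.369 peaks per 10000 for TetR against WT (exact p = 0.5), where full lists gave -0.685 and 1.07. Without WT replicate 2 the difference of TetR from WT was 0.570.

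Alpha held 2.25 ± 0.439 peaks per 10000 for TetR-MYBTA, 2.04 ± 0.333 for TetR and 1.61 ± 0.339 for WT (SD, n = 3 each). Beta held 2.46 ± 0.831 for TetR-MYBTA, 2.36 ± 0.323 for TetR and 2.22 ± 0.415 for WT. In alpha the ratio of TetR-MYBTA to WT was 1.40 (exact permutation p = 0.2) and that of TetR to WT 1.27 (exact p = 0.3). With lists of equal length TetR-MYBTA exceeded TetR and WT together by 0.702 in alpha (exact p = 0.0238) and 1.07 in beta (exact p = 0.0357), each with an adjusted p of 0.254, where full lists gave 0.430 and 0.169. The unequal cut of the lists, given above, bears on these values too. With full lists the lines overlapped in both clusters, and none of the 16 tests passed after adjustment (adjusted p of at least 0.533). Those of 3 against 3 libraries could not have passed, as their smallest exact permutation p is 0.1. With 7 to 19 peaks per library in each of these spans, differences of this size were not resolved.

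**Figure D5:**
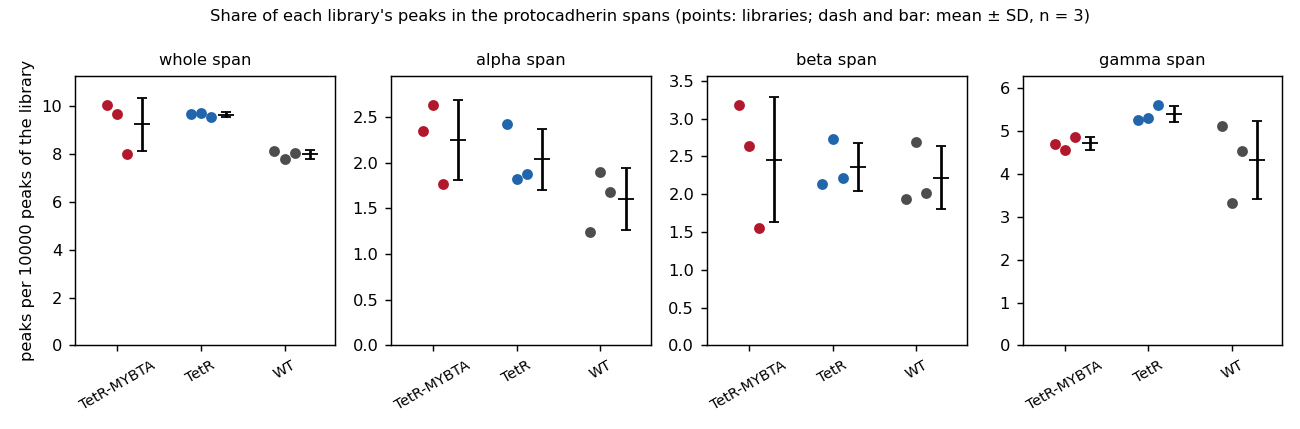
Peaks in the whole, alpha, beta and gamma spans per 10000 peaks of the library (y axis, from 0); points are libraries of TetR-MYBTA, TetR and WT, and the dash with its bar is the mean ± SD (n = 3). With full lists the TetR points lie above the WT points in the whole span and above both other lines in gamma, while alpha and beta points overlap.

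Single regions were then called where all libraries of one line had a peak and none of another did. No region of the span was present in TetR-MYBTA and absent in TetR (background 1.4% of all union regions), and 4 of 108 (3.70%) were present in TetR and absent in TetR-MYBTA (background 4.43%). None was present in TetR-MYBTA and absent in WT (background 1.23%) and 1 (0.926%) the reverse (background 2.79%). In 4 regions (3.70%) TetR had a peak and WT did not (background 2.26%), and in none the reverse (background 1.37%). Against TetR and WT together none was particular to TetR-MYBTA (background 0.587%) and 1 was missing there (background 1.16%). All these shares were of the order of the background.

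Of the 108 regions, 3 had a peak in every TetR library and in no other (background 1.34%), with no peak of another line within 1 kb. One lay at -1.80 kb from the start of Pcdhga2 (chr18:37667004-37667245), one 2.31 kb after the start of Pcdhga11 (chr18:37757975-37758200), at the downstream position, and one 35.5 kb after the end of gamma inside Diaph1 (chr18:37877302-37877536). They stood at places 1.24 to 29.2, 8.11 to 48.3 and 31.9 to 61.3. In lists of equal length the regions near Pcdhga2 and Pcdhga11 kept a peak in 1 of 3 TetR libraries each and lost their calls, and the one inside Diaph1 kept it in 3 of 3. The region missing in TetR-MYBTA, 16.2 kb after the start of Pcdhgc5 (chr18:37835564-37835890), had a peak in every TetR and WT library, but with lists of equal length in 0 of 3 TetR and 3 of 3 WT libraries. All 3 TetR-MYBTA libraries had a peak within 1 kb of it, and with peaks up to 200 bp apart merged it was no longer called.

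No member start was called between TetR-MYBTA and TetR in either direction (background 0.17% of genes open in TetR-MYBTA only and 1.22% open in TetR only), nor between TetR-MYBTA and WT (0.115% and 1.09%), nor between TetR-MYBTA and the other 6 libraries (0.0679% and 0.475%). Between TetR and WT 1 of 58 (1.72%) was called, the start of the pseudogene Pcdhgb8 (chr18:37761547-37761780), open in 1 of 3 TetR-MYBTA, 3 of 3 TetR and 0 of 3 WT libraries (background 0.278%), and none in the other direction (0.265%). It lost its call with lists of equal length.

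Among the 21 regions of all 9 libraries, which were also ranked within the 26020 such regions of the genome so that every list ranked the same ones (100 is the highest), the lines were compared by rank, with no test against the background shares. TetR-MYBTA libraries all ranked above the TetR libraries in 3 of 21 (14.3%, background 19.7%) and below in 2 (9.52%, background 19.5%). They ranked above WT in 4 (19.0%, background 20.2%) and below in 1 (4.76%, background 21.5%). TetR ranked above WT in 5 (23.8%, background 18.5%) and below in 2 (9.52%, background 19.7%).

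The region after the end of beta (chr18:37543614-37543950) was the only one of the 21 where TetR-MYBTA stood above all other libraries (4.76%, background 11.7%), and in 0 of 21 it stood below them (background 8.92%). It ranked 47.3, 29.2 and 29.4 in TetR-MYBTA, 3.78, 6.56 and 4.61 in TetR and 10.8, 3.02 and 17.0 in WT. The region near the shared gamma gene end (chr18:37840713-37841006) ranked 33.7, 32.8 and 3.23 in TetR-MYBTA, 71.1, 67.6 and 58.5 in TetR and 57.8, 31.3 and 38.8 in WT. There the TetR libraries lay above those of both other lines, which overlapped. The start of Pcdhgc3 ranked 75.2, 69.0 and 39.9 in TetR-MYBTA, 73.7, 55.4 and 66.4 in TetR and 22.7, 45.7 and 47.6 in WT, so that TetR lay above WT and TetR-MYBTA overlapped both. The downstream peak of Pcdhb14 ranked 66.8, 68.2 and 60.8 in TetR-MYBTA, 43.5, 48.5 and 64.8 in TetR and 59.7, 45.7 and 58.6 in WT, all TetR-MYBTA values above all WT values.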

How the data were processed

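The deposited data are 1 peak list per library. Peaks were called by HOMER findPeaks in each library alone, per the file headers, at an FDR of 0.001, with 4 times the tag density of the 10 kb around a peak, a local p-value of 0.0001, thresholds of 11 or 12 tags and at least 386 to 416 bp between peaks. The submitters' processing notes name Trim Galore 0.6.10, Bowtie2, Picard, deepTools 3.5.5, HOMER 4.11 and mm10. The deposited score is 1 in every row, so that presence was compared; depth behind single peaks is unknown. Read shifting for the transposase, exclusion lists and mapping filters are not given in the sources used here.

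Gene starts of the members are the lower coordinates, as all 3 clusters are known to read that way. Of 21900 protein-coding genes, the 14731 with a single start in the RefSeq promoter table (GRCm38.p6, none on chromosome 18) gave the background instead of all genes as planned. Listed genes without an entry there were scored at either gene end. Promoter motifs were not analysed here. Libraries were compared by the difference of their means in a two-sided exact permutation test, adjusted by Benjamini-Hochberg. Windows needed 10 peaks over all libraries. Union regions and calls were tested on simulated data. Members and lists were chosen with earlier results of these data known. Named are members with a start peak in any library, C-type members, the first and last gene of each cluster, other genes of the span, and regions present in all 9 libraries or called between lines. Alternatives were lists shortened to one length or to their upper 50%, other margins, distances and overlap rules, shares of chromosome 18 peaks, peak numbers, the replicate block and leaving out each library. Python 3.11.15, numpy 2.4.6 and pandas 2.3.3 were used.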

Additional observations from a re-analysis of the deposited data

How the results depend on the processing

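The higher density of gamma held under every alternative run (difference from alpha 3.39 to 8.60, from beta 3.60 to 8.09). That of beta over alpha was lost with lists of equal length (0.169), without margins (0.512) and on leaving out any of the 6 libraries named above (0.546 to 0.826 over all 9 omissions), and was -0.212 in the upper 50% of lists. None of the differences in span share between lines passed after adjustment in the full lists or under any alternative. For tests of 3 against 3 libraries this was fixed in advance, in the full lists as well, since their smallest exact permutation p is 0.1. For 3 against 6 it is 0.0119 before adjustment over 16 tests, which leaves little room to pass. That none passed therefore does not show the lines to be alike.

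Beside the values for lists of equal length given above, gamma of TetR-MYBTA against TetR was -0.0739 percentage points as a share of chromosome 18 peaks (exact p = 0.3). Several uncalled differences in span share changed sign, and the cause was not tested. With lists of equal length the whole span of TetR-MYBTA against TetR gave 1.70 peaks per 10000, beta of TetR against WT -0.0739 and gamma of TetR-MYBTA against the other 6 libraries 0.185. In the upper 50% of lists gamma of TetR-MYBTA against WT gave -0.149. As shares of chromosome 18 peaks, the first gave 0.133 and the third 0.0694 percentage points. As peak numbers, TetR-MYBTA against TetR gave -1 in alpha and -1.67 in beta, against WT -0.333 in gamma, and against the other 6 -4.83 in the whole span and -0.667 in beta. Leaving out 1 library gave -0.819 to 0.220 for the whole span of TetR-MYBTA against TetR. In beta it gave -0.266 to 0.551 against TetR, -0.124 to 0.692 against WT and -0.195 to 0.622 against the other 6. It gave -0.0431 to 0.380 for beta of TetR against WT and -0.116 to 0.781 for gamma of TetR-MYBTA against WT.

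Counts of members depended on list depth and distance. Starts open in no library numbered 5 at 2.5 kb, 33 with equal lists and 47 in the upper 50%, and 16 to 19 on leaving out 1 library; those open in all libraries numbered 2 in the upper 50% and 7 to 10 on leaving out 1 library. Downstream peaks were found in 18 members when lists were of equal length and 6 in the upper 50%, against 28.

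Shares called over all genes and all union regions were computed for the main rule only. The counts under other settings that follow therefore have no background beside them and are not read as results about the members. Called starts open in TetR and not in TetR-MYBTA numbered 1 at 2.5 kb, 1 in the upper 50%, 3 with 2 of 3 libraries required and 0 to 2 on leaving out 1 library. In TetR and not WT they numbered 2, 1 and 5, 0 with lists of equal length and 1 to 3. Equal lists gave 1 start open in TetR-MYBTA and not TetR. With 2 of 3 libraries 1 start was missing in TetR-MYBTA against WT and 1 against the other 6. Leaving out 1 library gave 0 to 1 in each direction between TetR-MYBTA and WT, the 1 being without WT replicate 1. Called regions with lists of equal length numbered 1 in TetR-MYBTA and not TetR, 1 the reverse, 1 in TetR-MYBTA and not WT, 2 in TetR and not WT, 1 the reverse and 0 missing in TetR-MYBTA against the other 6. In the upper 50% they were 2 in TetR and not TetR-MYBTA, 2 in TetR and not WT, and 0 missing in TetR-MYBTA against WT or the other 6. That last region was also lost (0) on merging to 200 bp or asking for no peak within 1 kb. Leaving out 1 library gave 0 to 1 regions in TetR-MYBTA and not TetR, 4 to 6 the reverse, 0 to 2 in TetR-MYBTA and not WT, 1 to 2 the reverse, 4 to 7 in TetR and not WT, 0 to 2 the reverse and 1 to 2 missing against the other 6.

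Deviations of same-numbered libraries of different lines correlated at -0.0786 to 0.162 over 2537 windows, highest for replicate 3 of TetR-MYBTA and TetR. Differently numbered libraries were not set beside them, so a shared batch was not tested. With the replicate number as a block the difference of TetR from WT in the whole span is 1.66 by construction. Its exact permutation p of 0.25 is the smallest that 3 pairs allow, so the block says nothing about stability.

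The alternatives for the counts of members and of downstream peaks, and the omission of libraries for cluster density, were chosen after seeing the data.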
